A study of Mus musculus with 14 samples.

Results

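Oxidative phosphorylation subunits are the proteins that build the complexes I to V of the mitochondrial inner membrane. Their nuclear genes were taken from an expression table of 35275 mouse genes by name, as protein coding genes starting with Ndufa, Ndufb, Ndufc, Ndufs, Ndufv, Uqcr, Cox4 to Cox8 or Atp5, together with Sdha, Sdhb, Sdhc and Sdhd. Pseudogenes, the 7 Ndufaf assembly factors and Ndufa4l2 were left out. This gave 84 genes, of which 37 belong to complex I by name, 4 to complex II, 8 to complex III, 18 to complex IV and 17 to complex V. Names follow the older nomenclature of the table, in which Atp5a1 and Atp5b are the catalytic ATP synthase subunits, and they do not always match current function: Ndufa4 is now counted with complex IV, Cox7a2l joins complexes into supercomplexes, and Atp5s and Atp5sl are not structural subunits of the ATP synthase.

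Complexes I and II take electrons from NADH and succinate, complex III passes them to cytochrome c and complex IV to oxygen. Complexes I, III and IV pump protons across the inner membrane, and complex V uses the gradient to make ATP. Complex II is also an enzyme of the tricarboxylic acid cycle. A small set of subunits of complexes I, III, IV and V is encoded by mitochondrial DNA, so each of these complexes needs products of both genomes. Several subunits of complexes IV and V exist as isoforms, some of them known from heart and skeletal muscle.

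The RNA came from KMF cells, a murine ovarian cancer line of C57Bl6 origin that was derived from ID8 cells by passage in mice, and from lines made from it. KMF cells carried no edit. FAK KO cells are 1 CRISPR/Cas9 clone, KT13, in which Ptk2, the gene of focal adhesion kinase (FAK), was disrupted, and the remaining lines were built on this clone. FAK-WT cells re-expressed GFP-FAK from a lentivirus, FAK-R454 cells re-expressed kinase-inactive GFP-FAK-R454, and β-catenin ΔGSK cells expressed an active form of β-catenin. All were grown for 5 days as anchorage-independent tumorspheres without treatment, and poly(A) RNA was sequenced from 3 samples of each line, except for FAK-R454 with 2, 14 in all (the methods describe 3 samples of FAK-R454, and the third was not analysed here). As 1 clone was used, a difference between KMF and FAK KO cells alone cannot be told apart from a trait of that clone. The lines built on the clone were made by viral transduction, drug selection and flow sorting. No clone cells with vector alone were among the samples, so differences of these lines from FAK KO cells cannot be told apart from effects of these steps.

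The libraries held 25390558 to 35289859 fragments assigned to genes. Ptk2 mRNA remained in FAK KO cells, at 20.5, 17.6 and 18.9 FPKM against 24.8, 24.2 and 23.9 FPKM in KMF cells, and was 42.3 to 45.4 FPKM in FAK-WT, 59.2 and 65.5 FPKM in FAK-R454 and 15.1 to 15.9 FPKM in β-catenin ΔGSK cells. The RNA level does not test whether the protein was lost. Ctnnb1, the gene of β-catenin, was at 207 to 223 FPKM in β-catenin ΔGSK, 139.5 to 148.5 FPKM in FAK KO, 195 to 207 FPKM in KMF, 127 to 129.6 FPKM in FAK-WT and 133 and 139 FPKM in FAK-R454 cells. Epithelial and mesothelial markers (8 genes) summed to between 1069 and 1809 FPKM in the 14 libraries, with Krt8, Krt18 and Krt19 at 160.4 FPKM or more in each, although Krt7 and Pax8 stayed below 1 FPKM in every line. The 5 leukocyte markers found summed to at most 12.3 FPKM and the 3 endothelial markers to at most 1.31 FPKM. Of the fibroblast list (4 genes), Dcn was the most abundant. The summed level of the list was 30.8 to 45.1 FPKM in β-catenin ΔGSK and 41.8 to 49.8 FPKM in KMF cells. It was 90.01 to 127 FPKM in FAK KO, 123 to 145 FPKM in FAK-WT and 122 to 132 FPKM in FAK-R454 cells. Of the 3 genes tested against FAK KO cells, 3 were lower in β-catenin ΔGSK cells (34.4% of all genes). In KMF cells 2 were higher (23.1% of all genes) and 1 was lower (28.7%). The part of these differences in the results on subunit genes was not tested. In such bulk samples, fewer cells of a type and less RNA per cell cannot be told apart.

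Promoter sequence is shown for the subunit gene with the greatest change, Cox7a1, and for Cox6a1 and Atp5l. Cox6a1 and Atp5l were picked from the genes higher in β-catenin ΔGSK than in FAK KO cells. They were picked because their windows held both the NRF1 and the ETS motif described below. Cox6a1 is also the most abundant subunit gene, and the Atp5l window held 3 of the motifs searched. Each window holds the 250 bases before the gene's start in RefSeq on build GRCm38.p6, read 5′ to 3′ on the gene's strand, with motif letters in capitals. Cox7a1 lies on the plus strand (chr7:30183921-30184170), Cox6a1 on the minus strand (chr5:115348959-115349208) and Atp5l on the minus strand (chr9:44920743-44920992).
Cox7a1: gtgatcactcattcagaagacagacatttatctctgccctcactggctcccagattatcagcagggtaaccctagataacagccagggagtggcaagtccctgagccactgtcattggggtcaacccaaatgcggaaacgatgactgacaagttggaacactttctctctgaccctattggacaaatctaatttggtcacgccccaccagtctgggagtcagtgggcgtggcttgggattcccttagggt
Cox6a1: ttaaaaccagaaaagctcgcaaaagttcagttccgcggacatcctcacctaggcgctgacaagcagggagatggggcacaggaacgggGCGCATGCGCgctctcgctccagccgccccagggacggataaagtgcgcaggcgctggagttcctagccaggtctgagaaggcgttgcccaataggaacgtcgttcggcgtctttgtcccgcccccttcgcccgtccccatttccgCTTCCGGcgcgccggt
Atp5l: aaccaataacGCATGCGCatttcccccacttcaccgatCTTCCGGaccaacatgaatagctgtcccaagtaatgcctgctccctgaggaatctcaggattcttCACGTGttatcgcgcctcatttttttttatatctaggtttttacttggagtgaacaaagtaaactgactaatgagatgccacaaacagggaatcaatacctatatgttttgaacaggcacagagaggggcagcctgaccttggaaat

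The motifs were searched on both strands from 250 bases before to 50 bases after the start, in 67 of the 84 genes with a RefSeq window and in 17492 protein coding genes. The NRF1 letters GCGCATGC, known from promoters of respiratory genes, were in 10 of the 67 subunit genes (14.9%) and in 3.94% of all coding genes. The ETS letters CCGGAAG, which GABP reads, were in 16 (23.9%) against 12.9%. The YY1 letters AAGATGGCG were in 7 (10.4%) against 2.14%, and the CRE letters TGACGTCA in 4 (5.97%) against 2.54%. The E-box CACGTG, read by Myc, was in 5 (7.46%) against 8.91%. The letters TNAAGGTCA of the estrogen-related receptors, a motif added after the expression values were seen, were in 3 (4.48%) against 1.19%. The Cox7a1 window held none of these letters, the Cox6a1 window held overlapping NRF1 matches starting 162 and 160 bases before the start and an ETS match 16 bases before it, and the Atp5l window held NRF1, ETS and E-box matches 240, 212 and 147 bases before the start. These are matches of letters only.

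Subunit genes were among the well expressed genes of the tumorspheres. FPKM counts fragments per kilobase of gene and scales each library by its depth. Levels of genes can be set side by side as far as their lengths hold. The mean FPKM of a line was above 1 in at least 1 line for 79 of the 84 genes, and across those 79 the median of the mean levels over the 5 lines was 92.0 FPKM. With the deposited gene lengths, Cox6a1 had the highest mean level at 946 FPKM. It encodes the ubiquitous isoform of a small complex IV subunit. Cox8a followed at 882 FPKM, Atp5b at 597 FPKM, Ndufa4 at 377 FPKM and Atp5a1 at 367 FPKM. The least abundant subunit gene of complex I was Ndufb2 at 2.11 FPKM. That level is not comparable with the others, because the table gives Ndufb2 a length 9.61 times that of its principal transcript, and 10 of the 84 genes have a length over 2 times that of the transcript (Ndufb2, Atp5g1, Ndufb7, Cox6c, Ndufa11, Atp5e, Ndufc1, Uqcrq, Ndufb8 and Ndufab1). Comparisons of 1 gene between lines do not depend on this length.

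The lines used 1 isoform of most isoform pairs. Cox4i1 was between 209 and 387 FPKM in the 14 libraries, and Cox4i2, the isoform known from lung and low oxygen, was at most 0.478 FPKM. Cox6b1 was between 212 and 423 FPKM, and the testis isoform Cox6b2 reached at most 1.31 FPKM. Cox7b was between 58.8 and 134 FPKM and Cox7b2 at most 0.928 FPKM. Cox8a was between 544 and 1586 FPKM, Cox8b at most 0.463 FPKM, and Cox8c was listed at 0 in all 14 libraries. Cox4i2, Cox6b2, Cox7b2, Cox8b and Cox8c were the 5 genes with a mean above 1 FPKM in no line. They enter no test that keeps all libraries and the filter on low values. The heart and muscle isoform Cox6a2 was near this limit, at 0.107 to 2.38 FPKM, with as few as 2 fragments in a library.

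In β-catenin ΔGSK cells the subunit genes as a group were higher than in any other line. Together the 84 genes took 3.35, 3.41 and 3.75% of the summed FPKM of the 3 β-catenin ΔGSK libraries. In the other lines the share was 2.30, 2.32 and 2.49% in KMF, 2.57, 2.72 and 2.58% in FAK KO, 2.58, 2.49 and 2.22% in FAK-WT and 2.49 and 2.45% in FAK-R454 cells. The 3 β-catenin ΔGSK shares lay above all 11 others. For single genes, the 3 β-catenin ΔGSK samples lay above all 11 other samples in 46 of 79 subunit genes, where 13.9% of all 12256 genes did so. They lay below all 11 in 0 subunit genes, against 18.3% of all genes.

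**Figure D1:**
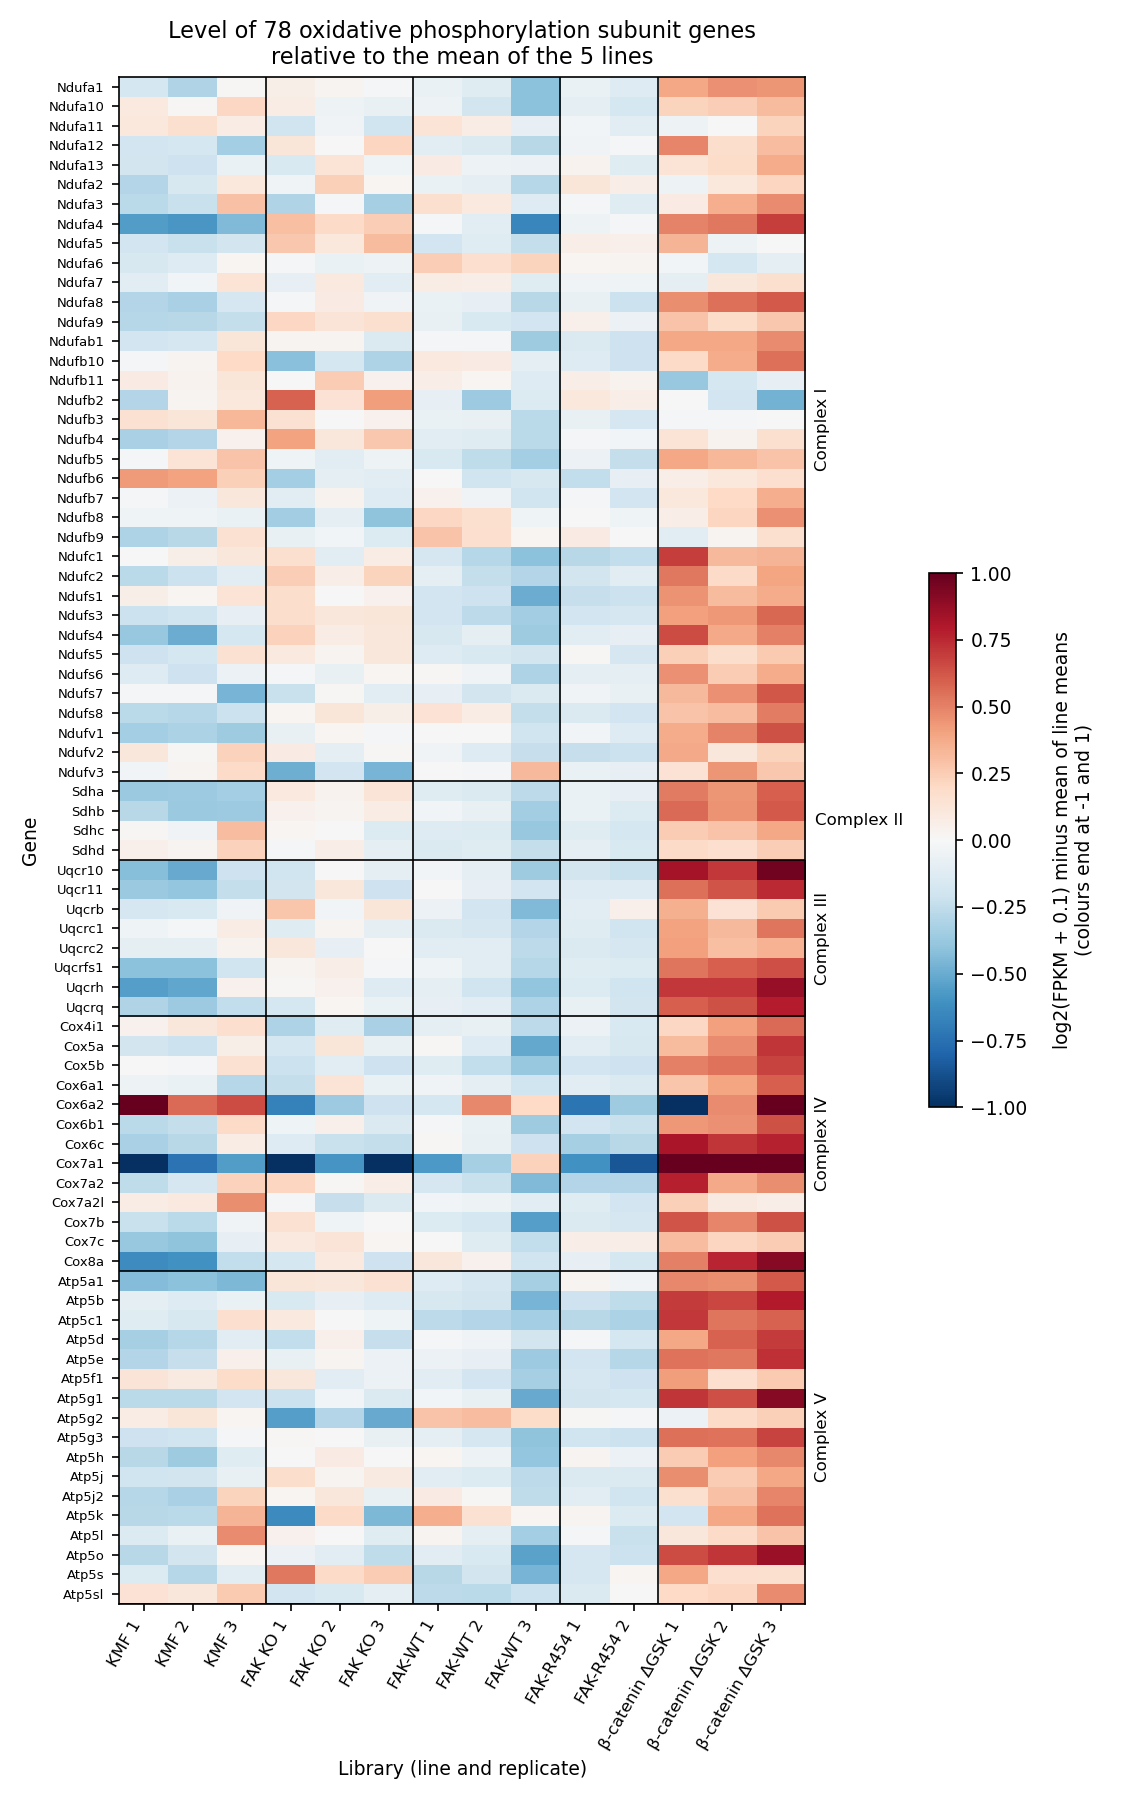
Each row is 1 of 78 subunit genes with a mean above 1 FPKM in a line and each column 1 library. Colour gives log2(FPKM + 0.1) minus the mean of the 5 line means, red above and blue below, ending at -1 and 1. The 3 β-catenin ΔGSK columns are red for most rows of each complex, and the row of Cox7a1 stands out. In complex I, 28 of 37 genes have their highest mean in this line.

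A test over all 5 lines (limma F test, adjusted p under 0.05) called 72 of the 79 genes, but it also called 83.9% of all genes tested, so a difference among the lines was the rule and not a property of these genes. The 5 largest F values among subunit genes belonged to Cox7a1 (F = 106, adjusted p = 1.12e-08), Sdha (F = 69.4), Atp5a1 (F = 62.2), Atp5b (F = 53.4) and Uqcrq (F = 51.0). The 3 smallest belonged to Ndufa7 (F = 0.336, adjusted p = 0.851), Cox6a2 (F = 1.27) and Atp5k (F = 1.84). Ndufa7, an accessory complex I subunit, had means of 162 to 174 FPKM in the 5 lines. Between them, the lines put the highest mean of 66 of 79 genes in β-catenin ΔGSK cells, where 25.9% of all genes had theirs. The lowest mean was in FAK-WT cells for 28 genes, in KMF cells for 27, in FAK-R454 cells for 11, in FAK KO cells for 10 and in β-catenin ΔGSK cells for 3, namely Ndufb2, Ndufb11 and Ndufa6. In the same order, 17.8%, 22.8%, 8.09%, 16.2% and 35.1% of all genes had their lowest mean in these lines.

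**Figure D2:**
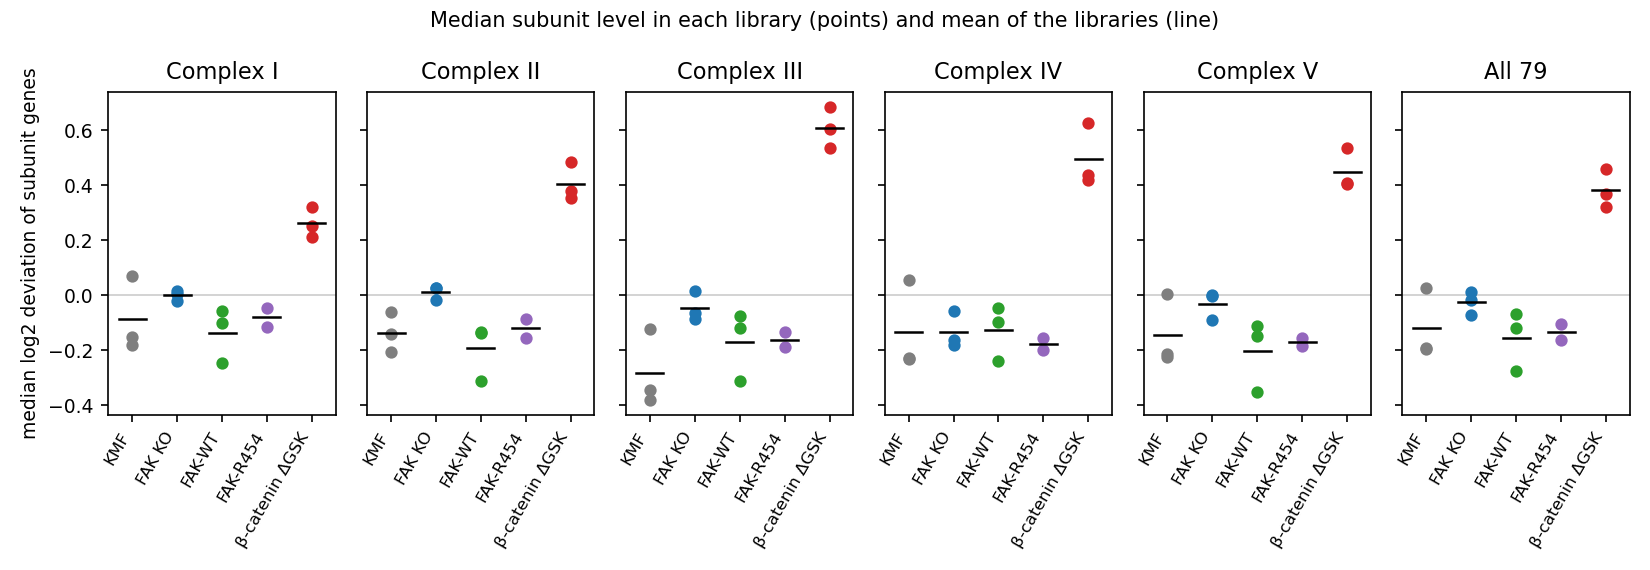
Each point is 1 library and gives the median, over the subunit genes of a complex, of log2(FPKM + 0.1) minus its mean over the 14 libraries. Lines mark the mean of the libraries of a line. In all 5 complexes the β-catenin ΔGSK libraries lie above every other library, and KMF replicate 3 and FAK-WT replicate 3 stand apart from the other libraries of their lines.

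β-catenin ΔGSK cells were compared with FAK KO cells, the clone they were built on. This comparison does not separate active β-catenin from the transduction and selection of the line. Of 79 subunit genes tested, 61 were higher in β-catenin ΔGSK cells and 2 were lower (limma, Benjamini-Hochberg adjusted p under 0.05 over all genes, at any fold). These are 77.2% and 2.53% of the subunit genes, where 23.7% of all genes tested were called higher and 34.4% lower. The median log2 fold change was 0.40 over the subunit genes, a 1.32-fold difference, and -0.09 over all genes. With a change of at least 2-fold required, only Cox7a1 was called, and 12.1% of all genes were called in either direction, so the difference of the subunit genes was broad and small. The count at 2-fold was 3 under median-of-ratios scaling or limma-voom on fragments and 2 without β-catenin ΔGSK replicate 1. The count of higher genes was between 52 and 62 when 1 of the 6 libraries was left out.

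Against the other 3 lines, in comparisons added after the values were seen, the counts were similar. Subunit genes called higher in β-catenin ΔGSK cells numbered 55 of 79 against KMF cells (background 25.1% of all genes), 64 against FAK-WT cells (background 24.4%) and 64 against FAK-R454 cells (background 21.2%). Those called lower numbered 3, 1 and 1, where 31.8%, 26.4% and 27.7% of all genes were. The counts lower moved when 1 library was left out. Against KMF cells the count was 0 without KMF replicate 1 (26.8% of all genes). Against FAK-WT cells it was 2 without FAK-WT replicate 3 (25.7%). Against FAK-R454 cells it was 3 without β-catenin ΔGSK replicate 1 (34.9%) and 0 without β-catenin ΔGSK replicate 2 (23.2%). The median log2 fold changes were 0.49, 0.53 and 0.51. These comparisons share the β-catenin ΔGSK samples.

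**Figure D3:**
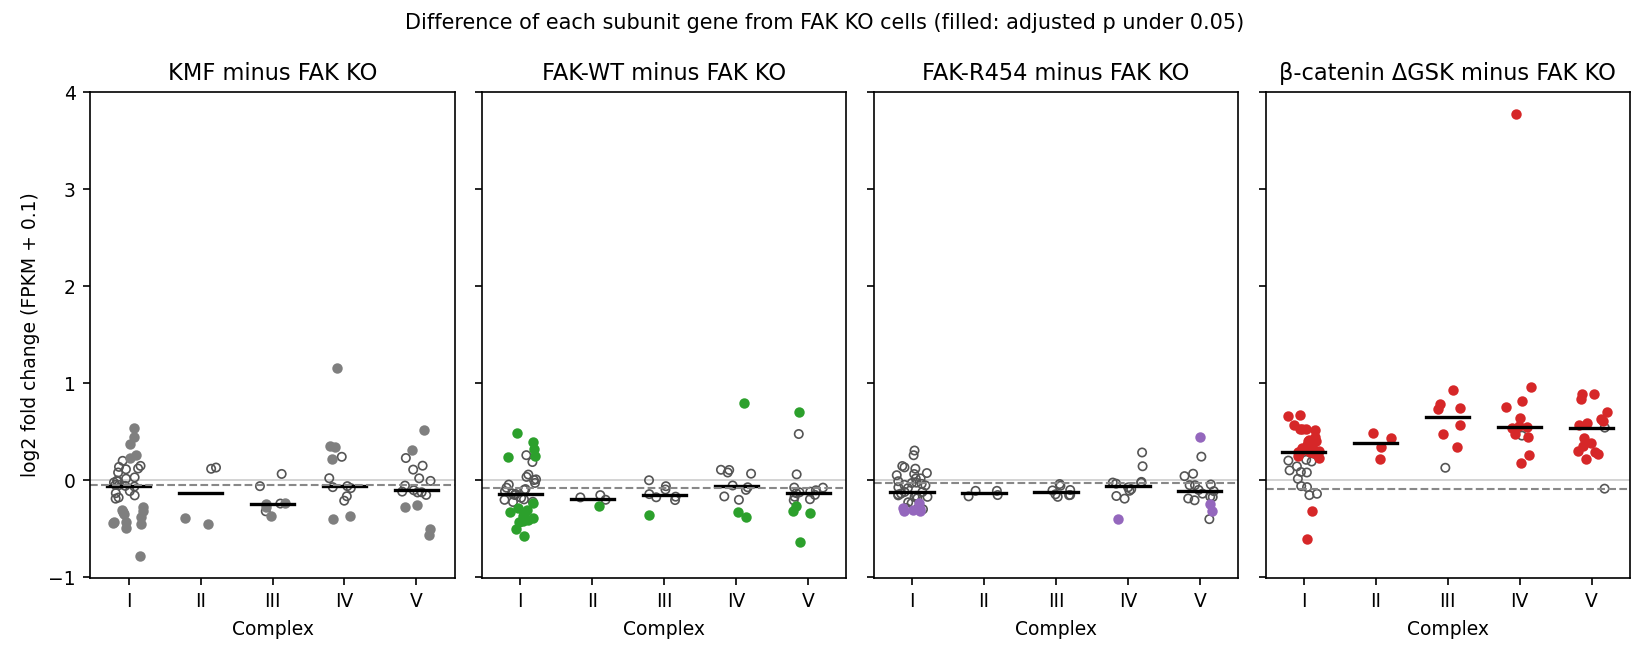
Each point is 1 subunit gene, placed by complex, and the vertical axis gives its log2 fold change from FAK KO cells on the log2(FPKM + 0.1) scale. Filled points passed an adjusted p of 0.05, short lines mark the median of a complex and the dashed line marks the median of all genes tested. In β-catenin ΔGSK cells the medians of complexes III, IV and V (0.65, 0.55 and 0.54) lie above that of complex I (0.30), and Cox7a1 lies alone at 3.78.

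Complex I, which oxidises NADH, had 23 of 37 genes higher in β-catenin ΔGSK than in FAK KO cells, 2 lower and 12 not called, with a median log2 fold change of 0.30. The 6 nuclear core subunits given here, of a group whose members hold the flavin and the iron-sulfur clusters, were higher, by between 0.23 and 0.58 on the log2 scale. Ndufs7 was at 101, 119 and 109 FPKM in FAK KO and at 147, 162 and 181 FPKM in β-catenin ΔGSK cells, a log2 fold change of 0.58 (SE 0.09, limma adjusted p = 7.58e-04). Ndufv1, which binds NADH, was at 119, 128 and 124 FPKM and at 163, 177 and 196 FPKM in the same lines, a log2 fold change of 0.52 (SE 0.08, adjusted p = 4.69e-04). For both genes the samples of the lines did not overlap. The other log2 fold changes were 0.33 for Ndufs3, 0.30 for Ndufs1, 0.30 for Ndufs8 and 0.23 for Ndufv2. The Ndufv2 call was lost when FAK KO replicate 2 or 3 or β-catenin ΔGSK replicate 1 or 3 was left out, and with no filter on low values.

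Among the 30 accessory subunits of complex I, 16 were higher and 2 lower. The lower ones were Ndufb2 and Ndufb11. Ndufb2 fell from 3.17, 2.30 and 2.80 FPKM in FAK KO to 2.07, 1.802 and 1.46 FPKM in β-catenin ΔGSK cells, by 0.61 on the log2 scale (SE 0.17, limma adjusted p = 0.0128). Ndufb11 was at 163, 194 and 168 FPKM and at 125, 144 and 153 FPKM, a log2 fold change of -0.31 (SE 0.10, adjusted p = 0.0205), and this call was lost without FAK KO replicate 2 and under median-of-ratios scaling, limma-voom on fragments and centring by chromosome. Its transcript shares at least 95% identity with a pseudogene, so its value is uncertain. Ndufa6, Ndufa7, Ndufa2, Ndufb3 and Ndufb9 had log2 fold changes between -0.07 and 0.10 and were not called.

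Complex II was higher with all 4 genes. Sdha, the flavoprotein that oxidises succinate, was at 149, 144 and 153 FPKM in FAK KO and at 200.5, 190.1 and 212 FPKM in β-catenin ΔGSK cells, a log2 fold change of 0.43 (SE 0.06, limma adjusted p = 5.08e-04). Sdhb, its iron-sulfur partner, changed by 0.49 (SE 0.06, adjusted p = 2.47e-04). The membrane anchors Sdhc and Sdhd changed by 0.35 (SE 0.07, adjusted p = 0.00305) and 0.22 (SE 0.06, adjusted p = 0.0166). The Sdhd call was lost without FAK KO replicate 3 or β-catenin ΔGSK replicate 3.

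Complex III had 7 of 8 genes higher, the exception being Uqcrb, at a log2 fold change of 0.13 (adjusted p = 0.243). Uqcr10, a small accessory subunit, was at 207, 236 and 223 FPKM in FAK KO and at 424, 389 and 464 FPKM in β-catenin ΔGSK cells, a log2 fold change of 0.94 (SE 0.08, limma adjusted p = 2.34e-05). Uqcrh, the hinge protein, was at 111, 113 and 100.03 FPKM and at 179, 179 and 200.4 FPKM, a log2 fold change of 0.78 (SE 0.07, adjusted p = 3.85e-05). Uqcrfs1, the Rieske iron-sulfur protein, differed by 0.57 (SE 0.06, adjusted p = 6.36e-05), and the core proteins Uqcrc1 and Uqcrc2 by 0.48 and 0.34.

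Complex IV had 12 of 13 genes higher, with a median log2 fold change of 0.55, and it held the gene that differed most. Cox7a1, the isoform of subunit VIIa known from heart and skeletal muscle, was at 7.39, 9.90 and 5.40 FPKM in the 3 FAK KO samples and at 94.2, 103 and 109.5 FPKM in the 3 β-catenin ΔGSK samples. It was between 7.28 and 10.1 FPKM in KMF, between 10.04 and 17.6 FPKM in FAK-WT and at 9.79 and 8.24 FPKM in FAK-R454 cells, so that the lowest β-catenin ΔGSK sample was far above the highest of the 11 others. The log2 fold change from FAK KO cells was 3.78 (SE 0.18, limma adjusted p = 7.55e-07). The ubiquitous isoform Cox7a2 was at 136, 119 and 123 FPKM in FAK KO and at 202, 152 and 162 FPKM in β-catenin ΔGSK cells, a log2 fold change of 0.44 (SE 0.11, adjusted p = 0.00689). The mean of Cox7a1 was thus 7.56 ± 2.26 FPKM beside 126 ± 8.99 FPKM for Cox7a2 in FAK KO cells, and 102 ± 7.67 FPKM beside 172 ± 26.1 FPKM with active β-catenin (SD, n = 3 each). The related Cox7a2l differed by 0.26 (SE 0.08, adjusted p = 0.0168), a call that was lost without FAK KO replicate 2 or 3 and with length and level trends removed. The muscle markers Ckm, Myh7, Actn2 and Myl2 were at most 0.188 FPKM in every library.

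Among the complex IV genes called, Cox6c had the second largest log2 fold change. It was at 74.4, 69.9 and 69.2 FPKM in FAK KO and at 143, 134 and 139 FPKM in β-catenin ΔGSK cells, a log2 fold change of 0.96 (SE 0.06, limma adjusted p = 3.07e-06). Cox6c lies on chromosome 15, where the median over the other genes tested was 0.01 in this comparison. Cox8a rose from 747, 902 and 728 FPKM to 1196, 1431 and 1586 FPKM, by 0.82 on the log2 scale (SE 0.12, adjusted p = 4.31e-04). Cox4i1, Cox6b1, Cox7b and Cox6a1 differed by 0.64, 0.56, 0.55 and 0.48. The gene of complex IV that was not called was Cox6a2, at 0.107, 1.02 and 2.38 FPKM in the 3 β-catenin ΔGSK samples, a wide spread at a low level (log2 fold change 0.46, SE 0.75).

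**Figure D4:**
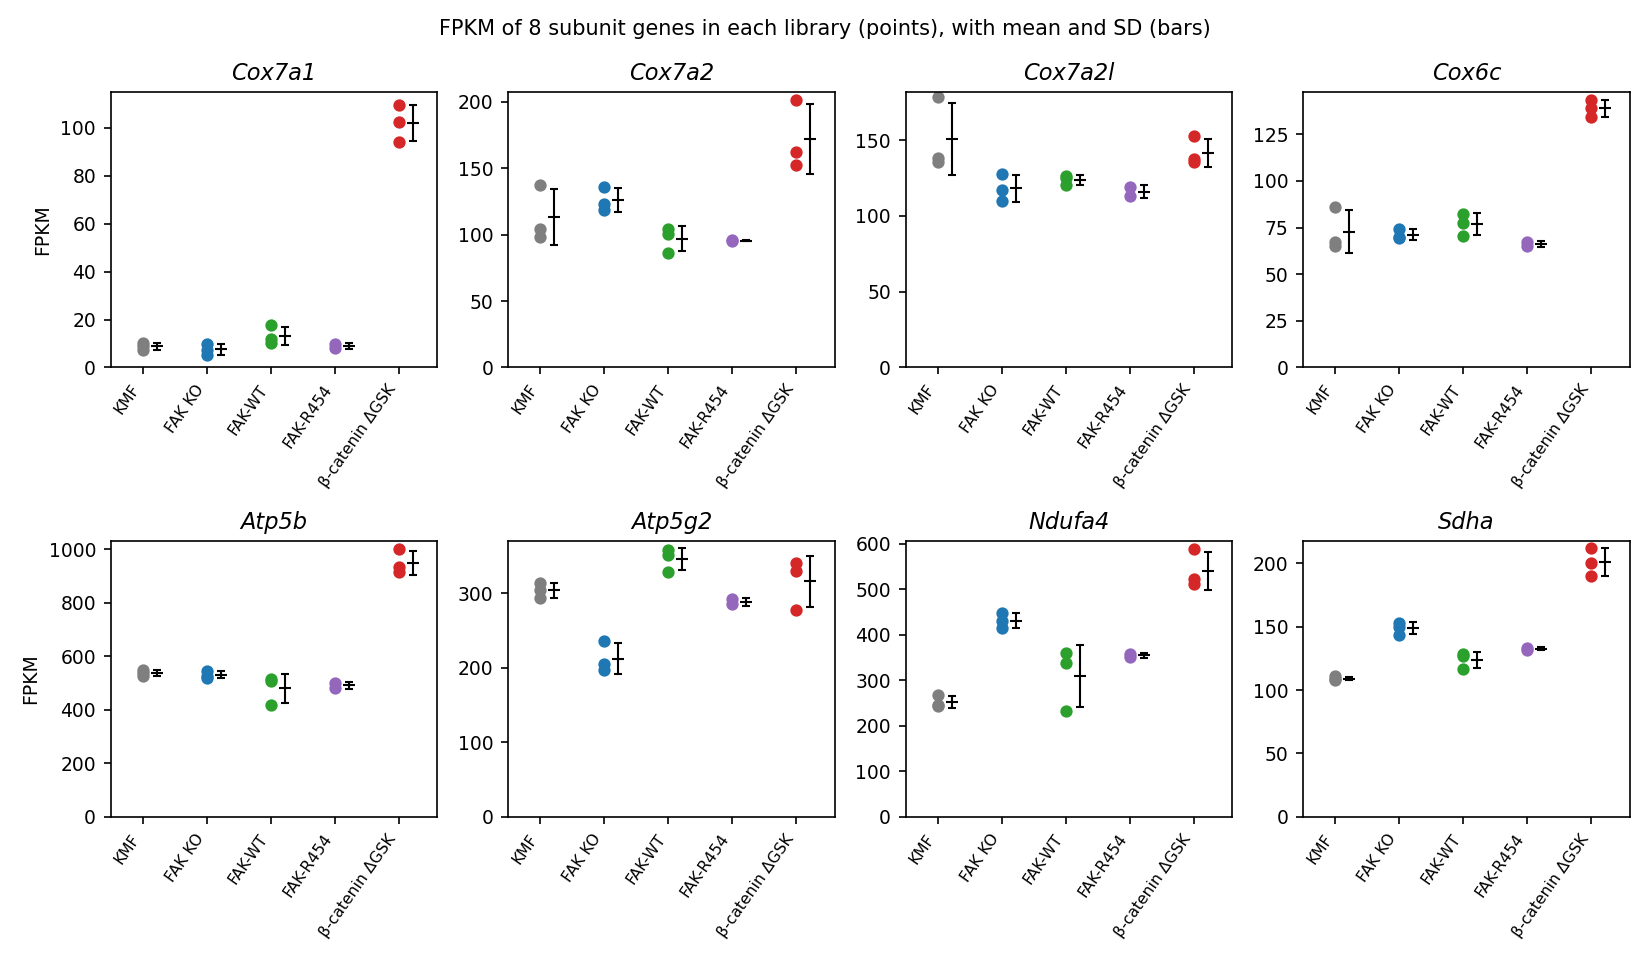
FPKM of 8 subunit genes in each library, by line, with points for libraries and bars for the mean and SD (n = 3, and n = 2 for FAK-R454). Cox7a1, Cox6c, Atp5b and Sdha are highest in the β-catenin ΔGSK libraries, while Atp5g2 is lowest in FAK KO and Ndufa4 lowest in KMF cells by their means.

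Complex V had 15 of 17 genes higher, with Atp5k and Atp5s not called, and a median log2 fold change of 0.54. All 5 genes of the catalytic F1 head were higher. Atp5b, the catalytic beta subunit, was at 518, 544 and 527 FPKM in FAK KO and at 933, 914 and 1000.3 FPKM in β-catenin ΔGSK cells, a log2 fold change of 0.84 (SE 0.06, limma adjusted p = 8.19e-06). Atp5a1, the alpha subunit, was at 389, 387 and 398 FPKM and at 498, 493 and 546 FPKM, a log2 fold change of 0.39 (SE 0.06, adjusted p = 8.38e-04). It lies on chromosome 18, where the other genes had a median of -0.39, and was at 0.77 with centring by chromosome.

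The membrane ring of the ATP synthase is built of subunit c, and its genes Atp5g1, Atp5g2 and Atp5g3 encode 1 mature protein. They differed in pattern. Atp5g1 was at 24.6, 28.1 and 25.9 FPKM in FAK KO and at 47.1, 44.9 and 54.0 FPKM in β-catenin ΔGSK cells, a log2 fold change of 0.89 (SE 0.09, limma adjusted p = 4.39e-05), and Atp5g3 differed by 0.61 (SE 0.06, adjusted p = 6.50e-05). Atp5g2 was at 197, 236 and 205 FPKM in FAK KO cells and higher in all 4 other lines, at 278 to 341 FPKM in β-catenin ΔGSK, 293 to 314 FPKM in KMF, 329 to 358 FPKM in FAK-WT and 285 and 292 FPKM in FAK-R454 cells. None of the 3 FAK KO samples overlapped the samples of another line. The log2 fold changes of Atp5g2 from FAK KO cells were 0.52 in KMF (SE 0.08, adjusted p = 9.00e-04), 0.71 in FAK-WT (SE 0.08, adjusted p = 5.33e-04), 0.45 in FAK-R454 (SE 0.08, adjusted p = 0.00899) and 0.57 in β-catenin ΔGSK cells (SE 0.10, adjusted p = 0.00114), and the 4 comparisons share the FAK KO samples. Transcripts of 12 subunit genes are at least 95% identical to a pseudogene, so their values are uncertain: Atp5g1, Atp5g2, Atp5c1, Atp5h, Atp5k, Atp5l (with 8 of them), Atp5o, Uqcrb, Ndufs3, Ndufs5, Ndufs6 and Ndufb11. The same holds for Cox7c, which has a near-identical gene.

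The comparison of KMF with FAK KO cells asks what the clone without FAK changed. Of 79 subunit genes, 11 were higher in KMF cells and 24 lower, 13.9% and 30.4% of the genes, where 23.1% of all genes were called higher and 28.7% lower. The median log2 fold change was -0.07 beside -0.05 over all genes. Without KMF replicate 3 it was -0.16 beside -0.05, and without KMF replicate 2 it was -0.05 beside -0.04. In the fit with every library the share lower was near the background. At 2-fold, only Cox6a2 was called, against 8.01% of all genes. Without FAK KO replicate 3 the count higher was 7 (18.5% of all genes), and without KMF replicate 3 the count lower was 36 (45.6% of subunit genes, where 28.9% of all genes were), beside 16 without KMF replicate 1 or 2 (20.3%, where 21.9% and 22.7% of all genes were). With length and level trends removed it was 30 (38.0%, beside 26.9% of all genes), so whether the share lower was near that of all genes depended on these choices. Centring by chromosome gave 6 higher and 14 lower, where 22% and 20.7% of all genes were. By complex, 5 genes of complex I were higher and 12 lower, complex II had 0 and 2, complex III 0 and 4, complex IV 4 and 2 and complex V 2 and 4.

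Single genes moved in this comparison beyond the spread of their samples. Ndufa4 was at 246, 243 and 267 FPKM in KMF and at 448, 415 and 431 FPKM in FAK KO cells, a log2 fold change of -0.78 (SE 0.07, limma adjusted p = 3.93e-05). Atp5a1 was at 264, 268 and 262 FPKM beside 389, 387 and 398 FPKM, a log2 fold change of -0.56 (SE 0.06, adjusted p = 1.08e-04), and the other chromosome 18 genes had a median of -0.38. Ndufa4 lies on chromosome 6, where the 572 other genes had a median of -0.33. With centring by chromosome Ndufa4 was at -0.44 and Atp5a1 at -0.18, both still called. Atp5s differed by -0.50 (SE 0.11, adjusted p = 0.00482). In the other direction, Ndufb6, an accessory complex I subunit, was at 114, 113 and 100.2 FPKM in KMF and at 67.1, 79.7 and 78.4 FPKM in FAK KO cells, a log2 fold change of 0.54 (SE 0.09, adjusted p = 0.00107). Cox6a2 was at 1.52, 1.09 and 1.16 FPKM beside 0.404, 0.525 and 0.597 FPKM (log2 fold change 1.16, SE 0.21, adjusted p = 0.00198), a call that was lost when the spread was estimated over all 5 lines. Of the core complex I subunits, Ndufs3, Ndufs8 and Ndufv1 were lower in KMF cells, by 0.30 to 0.32 on the log2 scale. Ndufs8 and Ndufv1 lie on chromosome 19, where the 435 other genes had a median of -0.26, and neither was called with centring by chromosome. Sdha and Sdhb were lower, with log2 fold changes of -0.45 and -0.39 (Sdha at -0.21 with centring, as its chromosome 13 had a median of -0.25 over the other genes), while Sdhc and Sdhd had 0.13 and 0.12 and were not called.

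FAK-WT cells were set against FAK KO cells, the clone they were built on, with the same limit from transduction and selection. Of 78 subunit genes tested, 7 were higher in FAK-WT cells and 20 lower, 8.97% and 25.6%, where 15.6% of all genes were called higher and 25.2% lower. The median was -0.14 beside -0.08 over all genes, and 0 subunit genes were called at 2-fold, where 4.62% of all genes were (limma, and 0 also at an unadjusted p under 0.05). In this fit the share lower was near that of all genes, but with length and level trends removed it was 39.7% of the subunit genes (31 of 78) beside 20.8% of all genes. The counts rested on single libraries: the count higher was 4 without FAK KO replicate 1, 2 without FAK KO replicate 3 and 3 without FAK-WT replicate 2, where 11.7%, 10.1% and 10.6% of all genes were higher, and the count lower was 13, 11 and 13, where 17.6%, 13% and 15.6% of all genes were lower. FAK-WT replicate 3 had the lowest subunit levels of the 14 libraries, with a median deviation of -0.28 on the log2 scale beside -0.07 and -0.12 in the other FAK-WT libraries. Without FAK-WT replicate 3 the median log2 fold change from FAK KO cells was -0.069, beside -0.068 over all genes. Without FAK-WT replicate 1 it was -0.19 beside -0.08.

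Atp5s was at 3.66, 3.91 and 3.19 FPKM in FAK-WT and at 6.46, 5.09 and 5.34 FPKM in FAK KO cells, a log2 fold change of -0.63 (SE 0.12, limma adjusted p = 0.00474). Ndufb2 differed by -0.58 (SE 0.15, adjusted p = 0.0168), a call lost without FAK KO replicate 1 or 3 or FAK-WT replicate 2. Ndufa4 was at 359.5, 337 and 231 FPKM in FAK-WT cells, a log2 fold change of -0.50 (SE 0.15, adjusted p = 0.0277) that was not called once any 1 FAK KO library was left out. The core subunits Ndufs1 and Ndufs3 were lower, by 0.37 and 0.40 on the log2 scale, the first of these not without FAK KO replicate 1. Sdha differed by -0.26 (adjusted p = 0.0136, not called without FAK KO replicate 3). Higher in FAK-WT cells were Atp5g2, Ndufv3 at 0.49 (SE 0.11, adjusted p = 0.011) and Cox7a1 at 0.79 (SE 0.24, adjusted p = 0.0316), which was at 10.04, 11.9 and 17.6 FPKM beside 7.39, 9.90 and 5.40 FPKM and was not called without FAK KO replicate 1 or 3 or FAK-WT replicate 2 or 3.

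For some subunit genes, the value in FAK-WT cells went with that of other genes on the same chromosome. This did not hold throughout: on chromosome 7 the other genes had a median of 0.07 and the 7 subunit genes one of -0.10. Of the 7 genes called higher, 3 lie on chromosome 15 (Atp5g2, Ndufa6 and Ndufb9), where the 475 other genes tested had a median of 0.30 on the log2 scale. Ndufa6 differed by 0.26 (SE 0.06, limma adjusted p = 0.0113), not called without FAK KO replicate 3, and Ndufb9 by 0.24 (SE 0.08, adjusted p = 0.0443), the latter not called without any 1 of 5 libraries (all but FAK-WT replicate 3). The fourth gene there, Cox6c, differed by 0.11 and was not called. On chromosome 18, where the 293 other genes had a median of -0.37, Atp5a1 was lower by 0.34 on the log2 scale (adjusted p = 0.0081) and Ndufa2 had -0.22 (adjusted p = 0.0809). With each chromosome's median subtracted, the counts were 2 higher and 10 lower (2.56% and 12.8% of subunit genes, where 16.3% and 14.3% of all genes were), the calls of Cox7a1, Ndufv3 (on chromosome 17, where the 569 other genes had a median of 0.16), Ndufa4, Ndufb2 and Sdha were lost, and Ndufa6, Ndufb9 and Atp5a1 changed sign to -0.06, -0.08 and 0.03. Atp5g2 was then at 0.40 and Ndufs3 at -0.23, both still called. The part of a chromosome-wide difference in these values was not tested further.

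FAK-R454 cells, with 2 samples, differed little from FAK KO cells in these genes. Of 78 genes, 1 was higher, Atp5g2, and 9 were lower, 1.28% and 11.5%, where 9.78% of all genes were called higher and 9.89% lower. The median was -0.11 beside -0.03 over all genes. At 2-fold 0 subunit genes were called, where 2.74% of all genes were (limma, and 0 also at an unadjusted p under 0.05). Cox7a2 was at 95.5 and 95.6 FPKM in FAK-R454 cells beside 136, 119 and 123 FPKM (log2 fold change -0.39, SE 0.07, limma adjusted p = 0.00837). Ndufc2 differed by -0.32 (SE 0.07, adjusted p = 0.0196) and Ndufs3 by -0.31 (SE 0.06, adjusted p = 0.00902, and at -0.20 with centring by chromosome). Ndufs1 and Ndufs8 were also lower. The calls of Ndufc2, Ndufs1 and Ndufs8 were lost with the replicate block and without FAK KO replicate 3. Those of Ndufs1 and Ndufs8 were also lost with no filter on low values, and that of Ndufs8 with median-of-ratios scaling. Cox7a2 and Ndufs8 were not called in 1 fit of 5 lines. Without either FAK-R454 library the counts were 0 and 0, but the line then had 1 sample, which was assumed to vary like FAK KO, and the calls over all genes also dropped, to between 1.99% and 2.83% in each direction. Without FAK KO replicate 2 they were 8 and 24, where 16.3% of all genes were higher and 20.8% lower, and without FAK KO replicate 3 there were 3 lower, where 4.10% of all genes were.

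Between FAK-WT and FAK-R454 cells, which differ in kinase activity, 0 of 78 subunit genes were higher in FAK-WT and 1 was lower (limma), where 3.38% of all genes were called higher and 4.44% lower. At an unadjusted p under 0.05 there were 4 higher and 3 lower, a rule under which all genes were not counted. With limma-voom on fragments 2 were higher and 0 lower, where 4.66% and 4.12% of all genes were. At 2-fold the count was 0 beside 1.44% of all genes. The gene was Ndufa5, at 64.1, 67.1 and 61.9 FPKM in FAK-WT and at 76.7 and 75.9 FPKM in FAK-R454 cells (log2 fold change -0.25, SE 0.05, adjusted p = 0.0452). Without FAK-WT replicate 3, 18 subunit genes were higher and 3 lower (23.1% and 3.85%), where 12.8% and 15.3% of all genes were. Without any other library, 0 were lower. These data do not settle whether the subunit genes of FAK-WT and FAK-R454 cells differ.

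Genes beyond the subunits were taken as lists. The regulators linked to respiratory gene expression (14 genes, not all of them activators) included 3 at least 2-fold higher in β-catenin ΔGSK than in FAK KO cells. Of all genes, 12.1% were called at 2-fold in either direction. Ppargc1a, which encodes the coactivator PGC-1α, was at 3.42, 3.49 and 3.42 FPKM in FAK KO and at 8.44, 6.39 and 8.47 FPKM in β-catenin ΔGSK cells (log2 fold change 1.14, SE 0.12, limma adjusted p = 6.57e-05). Ppargc1b, its relative PGC-1β, was at 1.14, 1.77 and 1.81 FPKM and at 4.44, 5.78 and 5.45 FPKM (log2 fold change 1.69, SE 0.18, adjusted p = 8.13e-05). Esrra, the estrogen-related receptor alpha with which these coactivators work, was at 58.6, 79.7 and 69.1 FPKM and at 139.7, 153 and 162 FPKM (log2 fold change 1.14, SE 0.11, adjusted p = 4.15e-05). Myc and the mitochondrial RNA polymerase gene Polrmt were also higher, by 0.77 and 0.55 on the log2 scale, and Gabpa and Hif1a were lower, by 0.65 and 0.39. The 5 higher and 2 lower of 14 stand beside 23.7% and 34.4% of all genes. Nrf1, with a log2 fold change of 0.06, Yy1 and Tfam were among the 7 not called.

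Ppargc1a was also lower in the other lines than in FAK KO cells. It was at 1.41, 1.69 and 1.59 FPKM in KMF, at 1.7998, 1.56 and 1.0047 FPKM in FAK-WT and at 2.03 and 2.14 FPKM in FAK-R454 cells, below all 3 FAK KO samples in each case. The log2 fold changes from FAK KO cells were -1.10 in KMF (adjusted p = 7.67e-05), -1.23 in FAK-WT (adjusted p = 0.0021) and -0.70 in FAK-R454 cells (limma adjusted p = 0.00391). Esrra differed by -0.63 in KMF cells (adjusted p = 0.00133), and by -0.04 in FAK-WT as well as in FAK-R454 cells.

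**Figure D5:**
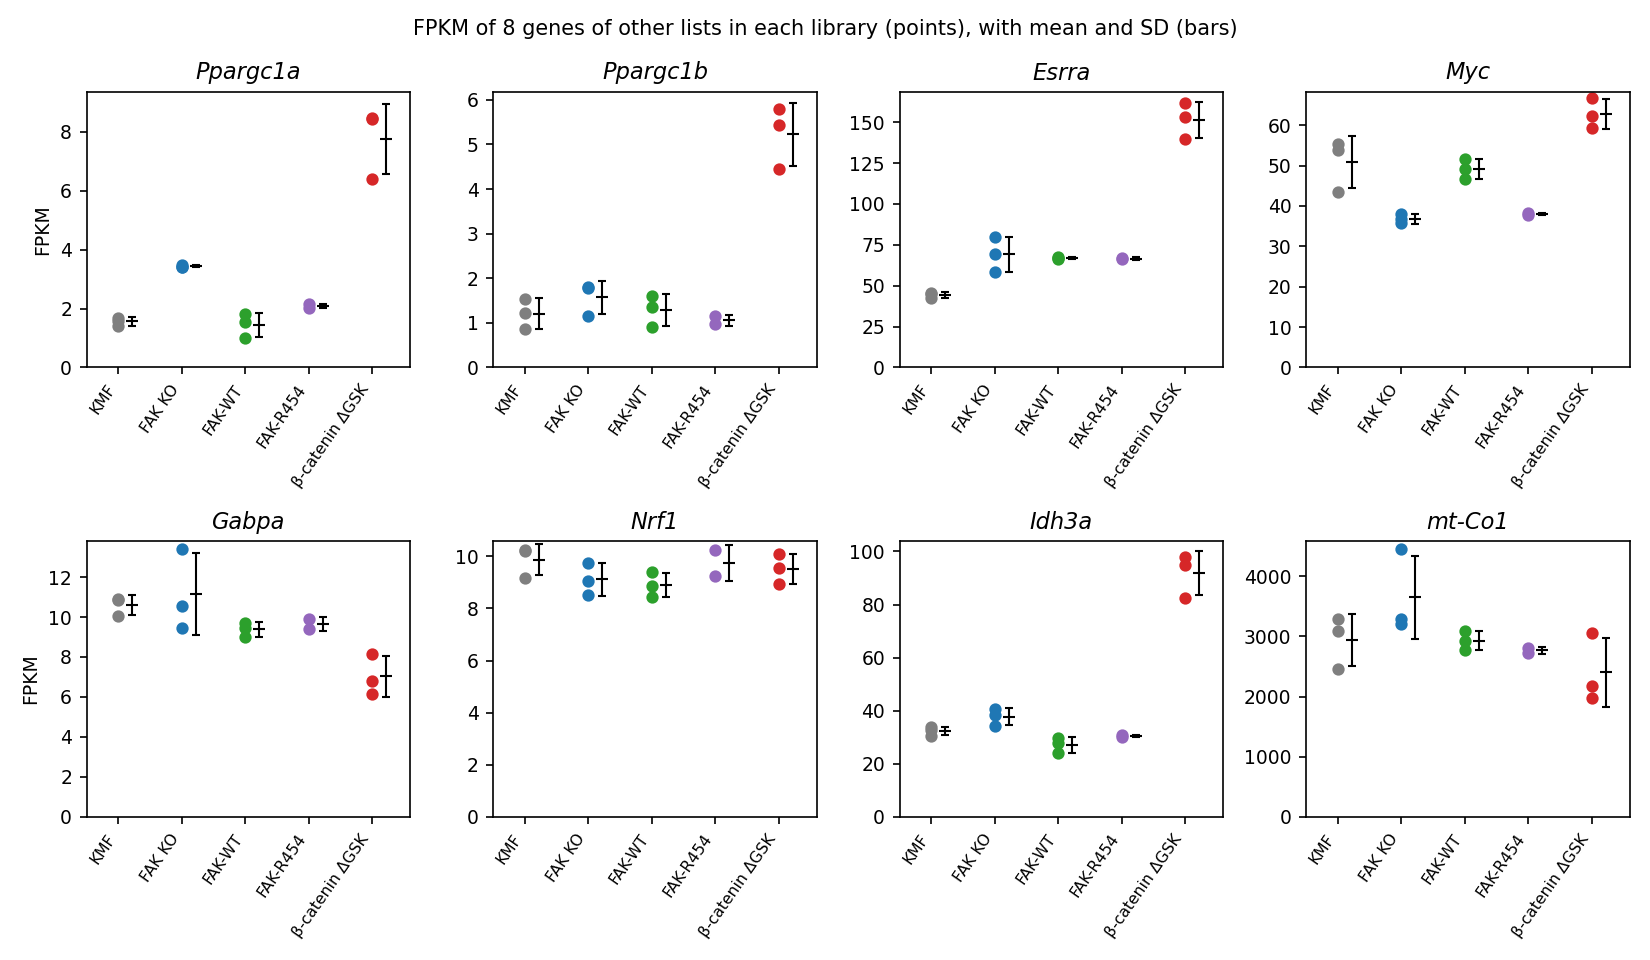
FPKM of 8 genes from the lists beside the subunits, in each library (points) with mean and SD (bars; n = 3, and n = 2 for FAK-R454). Ppargc1a, Ppargc1b, Esrra and Idh3a are highest in the β-catenin ΔGSK libraries, Gabpa is lowest there, and mt-Co1, encoded in mitochondrial DNA, has a wide spread within the FAK KO and β-catenin ΔGSK lines.

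The tricarboxylic acid cycle and pyruvate dehydrogenase genes, which feed the chain with electrons, had 15 of 18 higher and 0 lower in β-catenin ΔGSK cells, at a median log2 fold change of 0.33, where 23.7% of all genes were higher and 34.4% lower. Idh3a, a subunit of the NAD-dependent isocitrate dehydrogenase, rose from 40.6, 34.3 and 38.4 FPKM to 98.1, 82.3 and 94.8 FPKM, by 1.28 on the log2 scale (SE 0.09, limma adjusted p = 6.28e-06). In KMF cells 12 of these 18 genes were lower than in FAK KO cells and 0 higher, in FAK-WT cells 11 lower and 1 higher, and in FAK-R454 cells 4 lower and 0 higher, where 28.7%, 25.2% and 9.89% of all genes were lower. Among 19 other genes of the chain, 10 were higher and 2 lower in β-catenin ΔGSK cells. They included Cyc1 at 0.73 (SE 0.08, adjusted p = 7.22e-05), a complex III subunit whose name the selection does not take, and Cycs, cytochrome c, at 0.50 (SE 0.14, adjusted p = 0.0156). Assembly factors, which build the complexes, had 6 of 39 higher and 6 lower in β-catenin ΔGSK cells, where 23.7% and 34.4% of all genes were.

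Of the subunits encoded by mitochondrial DNA, none passed the limma test as higher with active β-catenin in any of the 4 comparisons. All 12 tested were lower than in FAK KO cells, where 34.4% of all genes were, at a median log2 fold change of -0.69. Against the other lines fewer were called, with 5 of 13 lower than in KMF (background 31.8%), 4 of 12 lower than in FAK-WT (background 26.4%) and 3 of 13 lower than in FAK-R454 cells (background 27.7%), and 0 higher in each. mt-Nd6 was at 742, 530.5 and 512 FPKM in FAK KO and at 355, 278 and 252 FPKM in β-catenin ΔGSK cells (log2 fold change -1.005, SE 0.16, limma adjusted p = 8.29e-04). mt-Co1 was at 4454, 3206 and 3288 FPKM and at 3059, 2168 and 1979.9 FPKM (log2 fold change -0.61, SE 0.18, adjusted p = 0.0158). FAK KO replicate 1 and β-catenin ΔGSK replicate 1 were the highest of their lines for both genes. The other lines also had genes of this list lower than in FAK KO cells, 5 of 13 in KMF (28.7% of all genes), 7 of 12 in FAK-WT (25.2%) and 5 of 13 in FAK-R454 cells (9.89%). mt-Atp8 was higher in KMF and FAK-R454 cells, by 1.89 and 1.61 on the log2 scale at means of at most 1.51 FPKM, and mt-Nd4l was higher in KMF cells by 1.02. Their levels are uncertain, because libraries were selected for poly(A), strand was not stated, and the mitochondrial genome has copies in the nucleus.

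Set beside the promoter matches, 15 of 16 subunit genes with an ETS match and 36 of 51 without were called higher in β-catenin ΔGSK than in FAK KO cells. For NRF1 the counts were 7 of 10 with and 44 of 57 without, for YY1 6 of 7 and 45 of 60, for CRE 2 of 4 and 49 of 63, for the E-box 4 of 5 and 47 of 62, and for the estrogen-related receptors 2 of 3 and 49 of 64. Atp5l, with 3 motifs, differed by 0.22 (limma adjusted p = 0.0271), and Cox7a1, with none in its window, by 3.78. The counts are small and were not tested. The most abundant subunit gene, Cox6a1, was at 789, 1026 and 892 FPKM in FAK KO and at 1133, 1226 and 1411 FPKM in β-catenin ΔGSK cells (log2 fold change 0.48, SE 0.11, adjusted p = 0.00593), a call that was lost with length and level trends removed. With centring by chromosome it was at 0.79.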

How the data were processed

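The authors deposited a table of FPKM (fragments per kilobase of gene, scaled to library depth) for 35275 genes in 14 libraries from poly(A)-selected RNA, sequenced as 150 bp pairs. The study's methods name TopHat2, and the submitters' processing notes name STAR 2.5, CASAVA 1.8 and DESeq2 with build mm10, so the mapper behind the table is not settled. FPKM times gene length gave whole fragments for 100% of values (tolerance 0.01), from which depth was read.

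Lines were compared with limma 3.58.1 (R 4.3.3; lmFit and eBayes with trend) on log2(FPKM + 0.1), a scale that understates the change of low genes. Each fit took the samples of 2 lines and genes with a mean above 1 FPKM in at least 1 of them, with Benjamini-Hochberg adjustment over all genes tested. A gene was called at an adjusted p under 0.05 with a mean above 1 FPKM in the higher line. The fit was tested on simulated data. The samples are RNA preparations of 1 line each. The study's methods call them independent for KMF cells and replicate for the clone and the lines built on it. The p-values therefore measure only the spread between these samples. An exact permutation test of 3 against 3 samples cannot go below p = 0.10 and was not used.

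Genes were named by a rule: the 3 called subunit genes that rose most and the 3 that fell most per comparison, the 5 largest and 3 smallest F values, core complex I, complex II, isoform sets, the 5 most abundant genes, genes under 1 FPKM, and those on chromosomes 15 and 18. From the other lists the rule takes genes called at 2-fold. The result for 1 subunit gene is not reported here by name. Any other gene given with values was chosen after they were seen. The members and lists were chosen with earlier results of these data known. Near-identical transcripts were searched with BLAST+ 2.17.0 in GENCODE M21 (at least 95% identity over 50% of the transcript), and 13 subunit genes had one. Alternatives were a pseudocount of 1, no filter, median-of-ratios scaling, a replicate block, limma-voom on recovered fragments, 1 fit of all 5 lines, removal of length and level trends, centring by chromosome and leaving out each library.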

Additional observations from a re-analysis of the deposited data

How the results depend on the processing

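The higher level of the subunit genes in β-catenin ΔGSK than in FAK KO cells kept its direction under all alternatives: 54 to 68 genes were higher under other settings and 52 to 62 when 1 library was left out. The median moved from 0.40 to 0.50 with median-of-ratios scaling, 0.47 with limma-voom on fragments and 0.49 with centring by chromosome, and fell to 0.36 with length and level trends removed, which gave 54 higher and 3 lower and lost, among named genes, the calls of Cox6a1, Cox7a2l and Ndufa4. The count lower moved from 2 to 1 under each of the first 3, with 2 to 3 when 1 library was left out. Median-of-ratios scaling shifted the median of all genes by 0.10 on the log2 scale in this comparison.

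The small counts moved more, and the cause was not tested. For KMF against FAK KO cells, centring by chromosome gave 6 higher and 14 lower, and leaving out 1 library 7 to 10 higher and 16 to 36 lower. For FAK-WT against FAK KO cells it gave 2 higher and 10 lower, with Ndufa6 at -0.058, Ndufb9 at -0.0755 and Atp5a1 at 0.0273, while removing length and level trends gave 31 lower (20.8% of all genes), and leaving out 1 library 2 to 9 higher and 11 to 21 lower. For FAK-R454 against FAK KO cells, limma-voom and trend removal gave 2 higher each (12.7% and 10.5% of all genes), no filter and the replicate block 4 lower each (2.84% and 7.32% of all genes), and leaving out 1 library 0 to 8 higher and 0 to 24 lower. For FAK-WT against FAK-R454 cells, the count higher was 18 with the replicate block, where 13.3% of all genes were higher and 15.5% lower. It was 1 with median-of-ratios scaling (4.44% of all genes), 2 with limma-voom (4.66%) and 1 with trend removal (4.18%). It was 0 to 18 when 1 FAK-WT library was left out. FAK-R454 had no replicate 3, so the block drops replicate 3 of the line compared with it from the contrast. The median of subunit genes with the block equalled that without this library, at 0.05 here and -0.12 for FAK-R454 against FAK KO cells. The count lower was 4 with the block and 2 with trend removal (3.62% of all genes). It was 0 with no filter, median-of-ratios scaling, limma-voom, 1 fit of 5 lines or centring by chromosome. When 1 FAK-WT library was left out it was 0 to 3. At an adjusted p under 0.05 over the 5 lines, 69 to 75 genes were called.

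The replicate numbers were not used as pairs in the main fits. Correlations of same-numbered deviations ranged from -0.25 to 0.45 over the 8 comparisons, and in no comparison were all above 0.1. In β-catenin ΔGSK against FAK KO cells they were 0.45, 0.28 and 0.08, all above 0. There, β-catenin ΔGSK replicate 3 and FAK KO replicate 2 had a correlation of 0.29. Whether the numbers mark pairs in this comparison was not tested. With the number as a block, 67 subunit genes were higher in β-catenin ΔGSK than in FAK KO cells and 3 lower. Of all genes, 27.9% were then higher and 40.5% lower. Cox6a2 had between 2 and 46 fragments in a library.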

Other observations

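Genes of the protein synthesis machinery were also counted. In β-catenin ΔGSK against FAK KO cells, 75 of 88 cytosolic ribosomal protein genes were higher and 2 lower (limma, adjusted p under 0.05), with a median log2 fold change of 0.40, as it was for the oxidative phosphorylation subunits. Of 76 mitochondrial ribosomal protein genes, 27 were higher and 6 lower, with a median of 0.11. Of all genes, 23.7% were higher and 34.4% lower. Against KMF cells, 29 of 88 cytosolic ribosomal protein genes were higher in β-catenin ΔGSK cells (median 0.19), where 25.1% of all genes were. Against FAK-WT and FAK-R454 cells, 54 and 62 of 89 were higher, at medians of 0.26 and 0.33, where 24.4% and 21.2% of all genes were.

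Ndufa4l2, a paralog of Ndufa4 that is not counted with the subunits, differed between the lines. It was at 419.7, 341 and 486 FPKM in KMF and at 20.7, 19.4 and 7.26 FPKM in FAK KO cells (log2 fold change 4.84, SE 0.35, limma adjusted p = 1.25e-05). It was at 49.0, 68.1 and 181 FPKM in FAK-WT, at 39.9 and 43.2 FPKM in FAK-R454 and at 50.8, 56.5 and 21.9 FPKM in β-catenin ΔGSK cells. Ndufa4 itself had its lowest mean in KMF cells, at 246, 243 and 267 FPKM.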
